A study of Mus musculus with 4 samples.

Results

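The dual-specificity MAP kinase phosphatases were examined by taking the rows of the deposited tables whose gene symbol was Dusp1, Dusp2, Dusp4, Dusp5, Dusp6, Dusp7, Dusp8, Dusp9, Dusp10 or Dusp16, which are 10 of the 24421 genes listed. The libraries labelled excitatory hold brain cells positive for αCaMKII and those labelled inhibitory hold brain cells positive for vGAT, with 2 libraries of each label and 100 cells, collected by hand for their fluorescence, pooled in each library. Per the labels, the mice were males of 3 to 5 months from αCaMKII-Cre and vGAT-IRES-Cre colonies kept by crossing to wild-type C57Bl/6J, where the promoters of the αCaMKII and vGAT genes drive the recombinase Cre, and no treatment and no mutant allele is named for these libraries, although the study concerns a mouse model of Noonan syndrome. Whether the libraries of a label came from separate mice is not stated, so p-values reflect only how these libraries vary, and that variation may be technical.

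MAP kinases are switched on when a MAP kinase kinase phosphorylates a threonine and a tyrosine in their activation loop, and the dual-specificity phosphatases switch them off by removing both phosphates. The family is usually sorted into nuclear enzymes that many stimuli induce (Dusp1, Dusp2, Dusp4 and Dusp5), cytosolic enzymes selective for ERK (Dusp6, Dusp7 and Dusp9), and enzymes that act mainly on the stress kinases JNK and p38 (Dusp8, Dusp10 and Dusp16). Several of them are themselves transcribed in response to the kinases they inactivate and so form a negative feedback.

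Each deposited value is the log2 of a normalized read count, with normalized counts below 1 listed as 0. The lowest values were spaced by 1.29, 1.23, 0.721 and 0.874 normalized reads in excitatory 1, excitatory 2, inhibitory 1 and inhibitory 2. Dividing the summed normalized reads by this spacing gives a depth of about 62000000 to 74200000 reads in each library. A single read therefore stayed above 0 in the excitatory libraries, while in the inhibitory libraries the lowest value above 0 corresponded to 2 reads. The labels were only partly borne out by marker genes. Camk2a, the gene of αCaMKII, had 16.53 and 16.46 in the excitatory libraries and 15.60 and 15.66 in the inhibitory libraries. Slc32a1, which encodes vGAT, had a listed 0 in every library, and Gad1, which encodes a GABA-synthesizing enzyme, had 10.91 and 11.17 in excitatory and 11.45 and 11.59 in inhibitory libraries (difference -0.48, limma adjusted p = 0.0649). The summed level of 8 astrocyte markers was 2.55% and 2.61% of the linear total in excitatory and 2.33% and 2.15% in inhibitory libraries, and that of 7 oligodendrocyte markers 3.75% and 3.80% in excitatory and 5.13% and 5.04% in inhibitory libraries, while 7 glutamatergic and 7 GABAergic markers summed to at most 0.144% and 0.0189%. In the deposited values 7 of the astrocyte and 4 of the oligodendrocyte markers were higher in excitatory libraries and none was lower. Of all tested genes, 45.0% were higher and 26.8% lower there. After median-of-ratios scaling 4 astrocyte markers were higher and 1 lower in excitatory libraries, and 4 oligodendrocyte markers were higher and 2 lower. The shares of all tested genes were then 32.3% higher and 33.5% lower. Of 4 markers of oligodendrocyte precursors, Pdgfra had a listed 0 in both excitatory libraries against 10.84 and 11.50 in inhibitory libraries, Olig2 was also lower in excitatory libraries, Olig1 did not pass (11.54 and 11.40 in excitatory, 11.13 and 11.10 in inhibitory libraries), and Cspg4 was above 0 in inhibitory 2 alone. Of 6 endothelial markers Cldn5, Cdh5, Tek and Kdr were at 0 in all libraries, and of 4 mural markers 2 were higher in excitatory libraries. Mbp, a myelin gene, was the highest gene with the same value of 21.33 in every library. How the authors scaled the libraries to each other is not given in the sources used here, and the shift of all genes, the split of calls by direction and the call for Dusp8, given below, depend on that scaling. Excitatory and inhibitory are therefore used below as names of libraries by their labels. In these bulk libraries fewer cells of a type and less RNA per cell cannot be told apart.

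Of the 10 phosphatase genes, 6 were tested, having a value of 1 or more in 2 or more libraries, 3 were listed at 0 in all 4 libraries, and Dusp9 was above 0 in a single library. Dusp8 and Dusp10 were higher in the excitatory libraries, and Dusp1, Dusp6, Dusp7 and Dusp16 were lower there, each with an adjusted p under 0.05 in limma's moderated test over 13619 genes. This count of 6 of 6 stands against 71.8% of all tested genes past the same threshold (45.0% higher in excitatory and 26.8% higher in inhibitory libraries), so a call by itself sets no member apart. Dusp1 and Dusp16 reached a value of 1 in 2 libraries only through the inhibitory libraries, where they were high, so these counts and the median below describe the members and support no statement about them. The values of the labels did not overlap for these 6 genes, as was the case for 86.4% of all tested genes. The median difference, excitatory minus inhibitory on the log2 scale, was -2.17 over the 6 tested members and 0.52 over all tested genes. Median-of-ratios scaling brought the median of all genes to -0.01, and that of the members was then -2.71, with 1 member higher in the excitatory libraries and 4 lower, against 65.8% of all tested genes past the threshold (32.3% higher and 33.5% lower). The number of members past the threshold was 3 when excitatory replicate 2, inhibitory replicate 1 or inhibitory replicate 2 was left out.

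**Figure D1:**
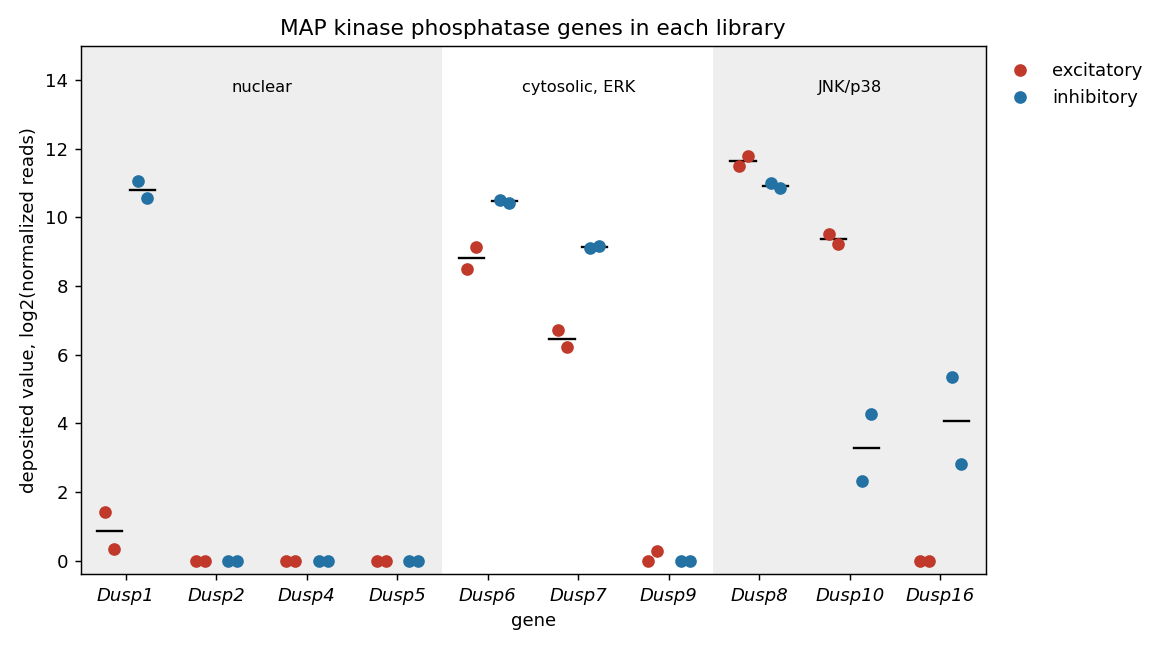
Deposited value, log2(normalized reads), of each phosphatase gene in each library, with excitatory libraries in red on the left and inhibitory libraries in blue on the right; black lines are means of 2 libraries and are left out where a library is listed at 0. Dusp1 lies at 1.40 and 0.34 in excitatory and at 11.05 and 10.56 in the inhibitory libraries, and Dusp10 shows the opposite order.

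The sequence before the start of 8 of the 10 genes was found in RefSeq's table (build GRCm38.p6, the same assembly as mm10), and 4 are printed because they show the range of the family: Dusp1 and Dusp10 had the largest differences in either direction, Dusp8 had high values under both labels, and Dusp5 was listed at 0 throughout. Each is the 250 bases that end just before the start, 5′ to 3′ on the strand of the gene. They lie at chr17:26508473-26508722 on the minus strand (Dusp1), chr7:142095285-142095534 on the minus strand (Dusp8), chr1:184034131-184034380 on the plus strand (Dusp10) and chr19:53528895-53529144 on the plus strand (Dusp5). The Dusp8 stretch lies inside the RefSeq span of its gene, which reaches position 142095907, so the start used is not that of its longest model. Among the stretches not printed, that of Dusp16 also lies inside its RefSeq span, and that of Dusp7 runs into its own. GENCODE release M21, another annotation, starts Dusp10 at position 184013302, before its printed stretch. The GENCODE span of Dusp1 reaches position 26562128, so the printed Dusp1 stretch lies inside that span. The GENCODE start of Dusp5, at position 53529109, lies within the printed Dusp5 stretch. Other starts of these genes were not searched. Capitals mark matches, searched on both strands, to the cyclic AMP response element (CRE, TGACGTCA), the AP-1 site (TGANTCA) and the CArG box bound by serum response factor.
Dusp1: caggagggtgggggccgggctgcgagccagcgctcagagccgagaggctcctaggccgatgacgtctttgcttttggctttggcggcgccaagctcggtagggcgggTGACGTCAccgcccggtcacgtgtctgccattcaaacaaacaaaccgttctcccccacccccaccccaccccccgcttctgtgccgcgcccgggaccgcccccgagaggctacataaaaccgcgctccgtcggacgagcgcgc
Dusp8: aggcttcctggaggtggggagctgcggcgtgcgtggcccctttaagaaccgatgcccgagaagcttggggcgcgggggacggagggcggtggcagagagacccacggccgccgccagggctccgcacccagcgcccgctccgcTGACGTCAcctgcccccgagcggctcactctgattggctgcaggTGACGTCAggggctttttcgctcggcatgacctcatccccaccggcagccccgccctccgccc
Dusp10: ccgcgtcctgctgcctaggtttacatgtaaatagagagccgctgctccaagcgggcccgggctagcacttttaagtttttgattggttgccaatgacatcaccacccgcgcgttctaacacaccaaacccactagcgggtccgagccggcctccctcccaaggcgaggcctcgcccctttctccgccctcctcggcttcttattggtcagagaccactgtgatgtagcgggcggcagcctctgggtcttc
Dusp5: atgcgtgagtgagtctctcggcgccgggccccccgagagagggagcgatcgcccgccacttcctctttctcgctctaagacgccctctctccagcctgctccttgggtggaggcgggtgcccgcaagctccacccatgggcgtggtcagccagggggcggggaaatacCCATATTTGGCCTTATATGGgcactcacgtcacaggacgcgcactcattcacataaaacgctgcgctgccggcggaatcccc
Dusp1 holds 1 CRE, from base 143 to base 136 before its start, and Dusp8 holds 2, from base 107 to base 100 and from base 63 to base 56. The CRE occurs in 1.55% of the 32851 promoter stretches of this length in the table. Dusp5 holds 2 adjacent CArG boxes, from base 82 to base 73 and from base 72 to base 63, a motif found in 1.47% of the stretches. AP-1 sites occur in 6.75% of them and in none of the 8 phosphatase stretches, and the stretches of Dusp2, Dusp6, Dusp7, Dusp10 and Dusp16 hold none of the 3 motifs. Dusp1 and Dusp8 thus share the CRE letters but had different patterns of expression, described below.

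Among the nuclear enzymes, Dusp1 was the only one above 0 in any library. Dusp1, a phosphatase of p38, JNK and ERK and a classical stimulus-induced gene, had 1.40 and 0.34 in the excitatory libraries and 11.05 and 10.56 in the inhibitory libraries. By the spacing of the values this corresponds to about 2 and 1 reads in the excitatory libraries and about 2946 and 1733 reads in the inhibitory libraries. The inhibitory libraries were thus high and the excitatory libraries at the edge of detection. The difference was -9.94 (SE 0.49, limma adjusted p = 0.000133), and 170 of the 13619 tested genes had a difference in this direction at least as large. On the linear scale Dusp1 was 930-fold lower in the excitatory libraries, with an exact 95% binomial interval, for counting error alone, of 318-fold to 4510-fold. The difference was -10.47 after median-of-ratios scaling and -7.50 when 8 was added to the linear values before the log2. With 1 library left out it ranged from -10.46 to -9.41. Dusp1 entered the test only through the inhibitory libraries, where it is high. Its adjusted p and its place among the tested genes therefore describe it and were not taken as support. Dusp1 lies at positions 26505591 to 26508472 of chromosome 17 in RefSeq. A longer Dusp1 model of GENCODE release M21 overlaps Ergic1 on the opposite strand, and Ergic1 averaged 10.18 ± 0.26 in excitatory and 9.74 ± 0.37 in inhibitory libraries (SD, n = 2 each), a difference of 0.44 with a limma adjusted p of 0.221.

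Dusp2, Dusp4 and Dusp5, the other nuclear enzymes, were listed at 0 in all 4 libraries. Dusp2 is best known from activated blood cells, Dusp4 acts on ERK and JNK, and Dusp5 is selective for ERK. A listed 0 was not read as absence, because the same was true of Lars in both excitatory libraries, a gene for charging tRNA with leucine that every cell uses, whereas its inhibitory values were 8.88 and 8.33.

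Several microglial markers and several stimulus-induced genes differed in the same direction as Dusp1. Of 11 microglial markers, 6 were lower in the excitatory libraries and 5 did not pass, and 9 were lower after median-of-ratios scaling. Of all tested genes, 26.8% were lower in the excitatory libraries, and 33.5% after that scaling. None of the 11 was at 0 in all libraries. Their summed level was 0.082% and 0.0896% of the linear total in the excitatory libraries and 0.317% and 0.265% in the inhibitory libraries. Tmem119 had 5.28 and 5.30 in excitatory and 10.94 and 10.45 in inhibitory libraries, whereas P2ry12 had 12.82 and 12.86 in excitatory against 12.71 and 12.67 in inhibitory libraries. The difference for P2ry12 was 0.15 (limma adjusted p = 0.286), and after median-of-ratios scaling it turned to -0.39 (limma adjusted p = 0.0432). The part of these cells in the Dusp1 result was not tested. Of 12 stimulus-induced genes, 10 were tested, of which 2 were higher and 6 lower in the excitatory libraries and 2 did not pass (median difference -1.93; 2 higher and 7 lower after median-of-ratios scaling). The threshold was passed by 71.8% of all tested genes in the deposited values. Egr2 and Npas4 were listed at 0 throughout. Fos, a component of AP-1, had 5.73 and 4.82 in excitatory and 13.32 and 12.89 in inhibitory libraries (difference -7.83, limma adjusted p = 0.000136). Junb, another AP-1 component, had 6.48 and 6.93 in excitatory and 12.16 and 11.64 in inhibitory libraries. Nr4a1, an orphan nuclear receptor, went the other way, with 9.19 and 8.73 in the excitatory libraries and a listed 0 in both inhibitory libraries. Arc, a synaptic gene induced by activity, was also higher in the excitatory libraries, with 13.30 and 13.35 there against 12.04 and 11.84 in inhibitory libraries. The number of stimulus-induced genes past the threshold was 4 without inhibitory replicate 1 and 4 without inhibitory replicate 2.

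Both cytosolic ERK phosphatases that could be tested were lower in the excitatory libraries. Dusp6, an enzyme that binds and inactivates ERK in the cytoplasm and is induced by ERK signalling, had 8.50 and 9.13 in excitatory and 10.52 and 10.43 in inhibitory libraries. The excitatory libraries differed more from each other than the inhibitory ones, but the labels did not overlap. The difference was -1.66, with an SE of 0.29 and a limma adjusted p of 0.00589, a 3.17-fold lower level in the excitatory libraries, and -2.20 or 4.60-fold after median-of-ratios scaling (limma adjusted p = 0.00388). The call for Dusp6 was lost when inhibitory replicate 1 or 2 was left out (limma adjusted p = 0.116 and 0.106).

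Dusp7, a close relative of Dusp6, had 6.71 and 6.21 in excitatory and 9.12 and 9.17 in inhibitory libraries, where the values were nearly equal. It was 6.43-fold lower under the excitatory label (difference -2.68, SE 0.31, limma adjusted p = 0.00141), and 9.33-fold lower after median-of-ratios scaling (limma adjusted p = 0.00095). This call too was lost when inhibitory replicate 1 or 2 was left out (limma adjusted p = 0.0554 and 0.0555). Dusp9, the remaining member of the class, is known from placenta, where it is needed in mice. It had 0 and 0.27 in the excitatory libraries, where 0.27 corresponds to about 1 read, and a listed 0 in both inhibitory libraries, and was not tested. Dusp6 lies at positions 99263231 to 99267489 of chromosome 10 and Dusp7 at positions 106368560 to 106375724 of chromosome 9.

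The JNK and p38 phosphatases did not move together. Dusp8, an enzyme of JNK and p38 that is prominent in brain, had 11.51 and 11.79 in excitatory and 10.99 and 10.87 in inhibitory libraries. Both labels were high, with the excitatory libraries slightly above. The difference of 0.72 was close to the 0.52 by which all tested genes were shifted (1.65-fold, SE 0.18, limma adjusted p = 0.0196). After median-of-ratios scaling it was 0.18 (limma adjusted p = 0.453) and after upper-quartile scaling 0.20 (limma adjusted p = 0.397), so the call depended on the scaling. It was also lost without excitatory replicate 2 (limma adjusted p = 0.0761), inhibitory replicate 1 (0.109) or inhibitory replicate 2 (0.131).

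Dusp10, which dephosphorylates JNK and p38 in preference to ERK, had 9.52 and 9.23 in the excitatory libraries and 2.32 and 4.26 in the inhibitory libraries. In the inhibitory libraries these values correspond to about 7 and 22 reads, against about 568 and 490 in the excitatory libraries. The excitatory libraries were close to each other and far above both inhibitory libraries. Dusp10 was 68.0-fold higher in the excitatory libraries (difference 6.09, SE 0.72, limma adjusted p = 0.00157), and 46.9-fold higher after median-of-ratios scaling. With 8 added to the linear values the difference was 5.16. The call was lost when excitatory replicate 1 or 2 was left out (limma adjusted p = 0.0932 and 0.0876), which leaves the spread to the 2 inhibitory libraries alone. Of all tested genes, 1208 had a difference at least as large in this direction.

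Dusp16, a phosphatase of JNK that shuttles between nucleus and cytoplasm, had a listed 0 in each excitatory library, against 5.34 and 2.80 in the inhibitory ones, or about 56 and 8 reads. The inhibitory libraries differed from each other by more than for any other member. The fitted difference of -4.07 passed (SE 0.91, limma adjusted p = 0.0139), but Dusp16 entered the test through the inhibitory libraries alone, where it is high. With 8 added to the linear values the difference was -1.75 (limma adjusted p = 0.0354). In the deposited values Dusp16 did not pass when excitatory replicate 1 or 2 was left out (limma adjusted p = 0.200 and 0.199). Dusp8 lies at positions 142079487 to 142095907 of chromosome 7, Dusp10 at positions 184034381 to 184075636 of chromosome 1 and Dusp16 at positions 134715468 to 134807063 of chromosome 6. Exons of Dusp8 overlap the annotated transcript Gm32786 on the opposite strand, and the libraries do not mark strand, so reads of this pair cannot be told apart where they overlap. Gm36328 lies opposite Dusp16 but overlaps none of its exons in GENCODE release M21.

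**Figure D2:**
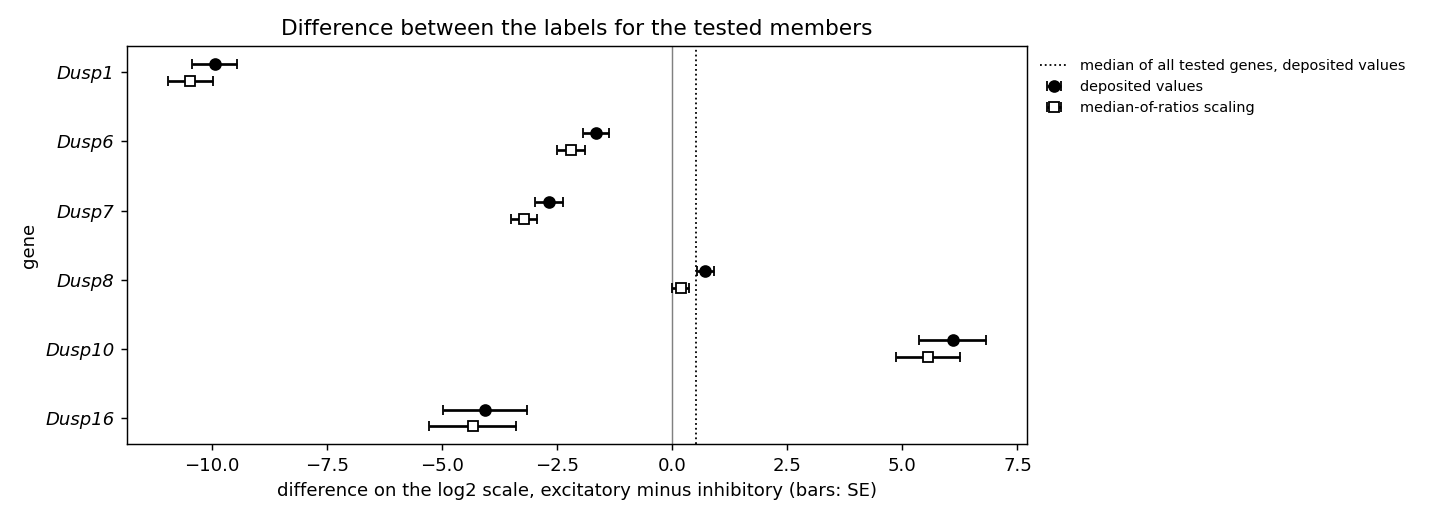
Difference between excitatory and inhibitory libraries on the log2 scale for the 6 tested members, from the deposited values (filled circles) and after median-of-ratios scaling (open squares), with the standard error from limma; the dotted line is the median of all tested genes at 0.52. Dusp1, Dusp6, Dusp7 and Dusp16 lie to the left of 0 and Dusp10 to the right under both scalings, while Dusp8 is at 0.72 in the deposited values and at 0.18 after scaling.

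Divided by exon length, the members could be placed in order within each library. The scale here is normalized reads per kb of exon, a level, with exon length from GENCODE release M21. In the excitatory libraries Dusp8 was the highest member, at 597 and 727 per kb, followed by Dusp10 at 242 and 198, Dusp6 at 115 and 179, and Dusp7 at 31.2 and 22.0. None of these 4 overlapped with its neighbour in the order. In the inhibitory libraries Dusp1 was the highest, at 641 and 457 per kb, followed by Dusp6 at 470 and 441, Dusp8 at 417 and 384, and Dusp7 at 165 and 172. Dusp1 and Dusp6 overlapped there, whereas Dusp6 and Dusp8 and likewise Dusp8 and Dusp7 did not. Dusp10 at 1.64 and 6.31 and Dusp16 at 5.20 and 0.893 overlapped at the low end. Among all genes above 0 in a library, Dusp8 ranked at the 66.4 and 70.2 percentile in excitatory and at the 66.4 and 65.1 percentile in inhibitory libraries on this scale, so its place among genes was similar under both labels. Dusp1 ranked at the 6.2 and 2.8 percentile in excitatory and the 73.9 and 68.4 percentile in inhibitory libraries. The exon length of Dusp1, 3.31 kb, includes exons of the longer GENCODE model that lie beyond its RefSeq positions. A shorter length would raise its level per kb, so its overlap with Dusp6 and these ranks depend on that model.

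The balance between the classes differed accordingly. Of the summed level per kb of the 10 genes, the JNK/p38 class made up 85.1% and 82.1% in excitatory and 24.9% and 26.8% in inhibitory libraries. The cytosolic ERK class made up 14.9% and 17.9% in excitatory and 37.4% and 41.9% in inhibitory libraries. The nuclear class, which is Dusp1 alone here, made up 0.0808% and 0.034% in excitatory and 37.7% and 31.3% in inhibitory libraries. A single scaling factor per library leaves these shares as they are, and no test was made of them. They do depend on the exon lengths used, which for Dusp1 include exons of the longer GENCODE model. The sums themselves were 986 and 1130 per kb in excitatory and 1700 and 1460 per kb in inhibitory libraries.

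**Figure D3:**
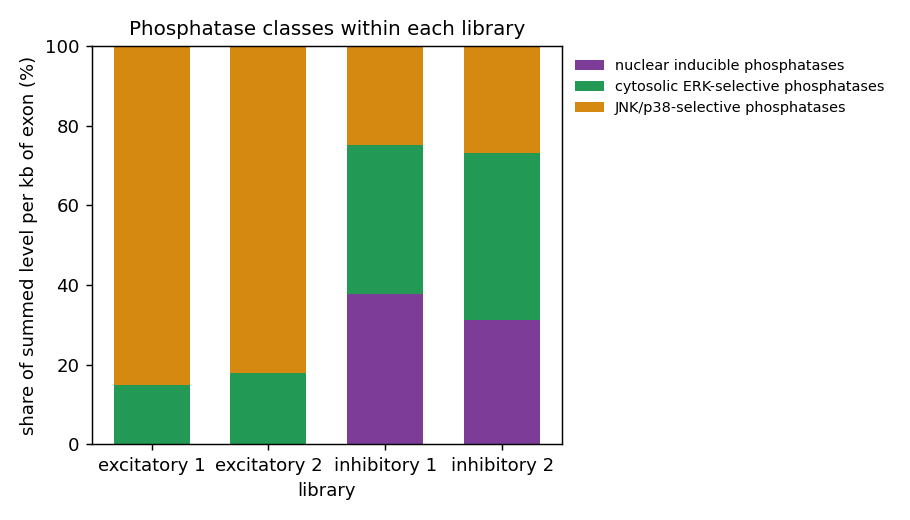
Share of each phosphatase class, in percent, of the summed level per kb of exon of the 10 genes, for each library. The JNK/p38 class fills 85.1% and 82.1% of the excitatory bars and 24.9% and 26.8% of the inhibitory bars, where the nuclear class, Dusp1, takes 37.7% and 31.3%.

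The MAP kinases on which these enzymes act also differed between the labels, member by member. Of 9 MAP kinase genes, the excitatory libraries were higher for 3 and lower for 5, and 1 did not pass. The counts were the same after median-of-ratios scaling, and the median difference was -1.61. Of all tested genes 71.8% passed, 45.0% higher and 26.8% lower, so passing by itself sets no kinase apart. Mapk3, which encodes ERK1, had 13.19 and 13.12 in excitatory and 11.85 and 11.67 in inhibitory libraries (difference 1.40, limma adjusted p = 0.000825).

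The JNK genes did not all differ in the same direction. Mapk8, which encodes JNK1, had 9.64 and 9.26 in excitatory and 0.48 and 0 in inhibitory libraries. Mapk9, which encodes JNK2, had 12.78 and 12.87 in excitatory against 7.76 and 7.71 in inhibitory libraries (difference 5.09, limma adjusted p = 9.49e-05). Mapk10, the gene of the neuronal JNK3, was lower in the excitatory libraries, with 9.75 and 9.33 there against 11.10 and 11.18 in inhibitory libraries, a call lost when inhibitory replicate 1 or 2 was left out (limma adjusted p = 0.0702 and 0.0738). Mapk14, which encodes p38α, had 5.70 and 6.11 in excitatory and 10.50 and 10.25 in inhibitory libraries (difference -4.47, limma adjusted p = 0.000263). Mapk12, another p38 gene, had 0.43 and 0 in excitatory against 9.73 and 10.18 in inhibitory libraries, and Mapk7, which encodes ERK5, had a listed 0 in each excitatory library, against 9.89 and 9.44 in the inhibitory ones.

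Of the 7 MAP kinase kinase genes, 4 were higher and 1 lower in the excitatory libraries and 2 did not pass, with a median difference of 1.18. After median-of-ratios scaling 4 were higher and 2 lower. Among all tested genes 71.8% passed in the deposited values and 65.8% after that scaling. Map2k5, which activates ERK5, had 10.59 and 9.71 in the excitatory libraries and a listed 0 in both inhibitory libraries, the reverse of Mapk7. Map2k3, an activator of p38, had 0.43 and 2.31 in excitatory against 9.35 and 9.13 in inhibitory libraries, and its call was lost when inhibitory replicate 1 or 2 was left out (limma adjusted p = 0.0608 and 0.0582). Map2k6, also an activator of p38, was higher in the excitatory libraries, with 8.72 and 8.07 there against 6.11 and 5.93 in inhibitory libraries, a call likewise lost without inhibitory replicate 1 (0.0756) or 2 (0.0811). Map2k2, an activator of ERK, had 12.53 and 12.59 in excitatory against 11.50 and 11.24 in inhibitory libraries and did not pass without excitatory replicate 1 (0.0608) or 2 (0.0644). The number of kinase kinases past the threshold was 3 without excitatory replicate 1 or excitatory replicate 2, and 2 without inhibitory replicate 1 or inhibitory replicate 2.

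**Figure D4:**
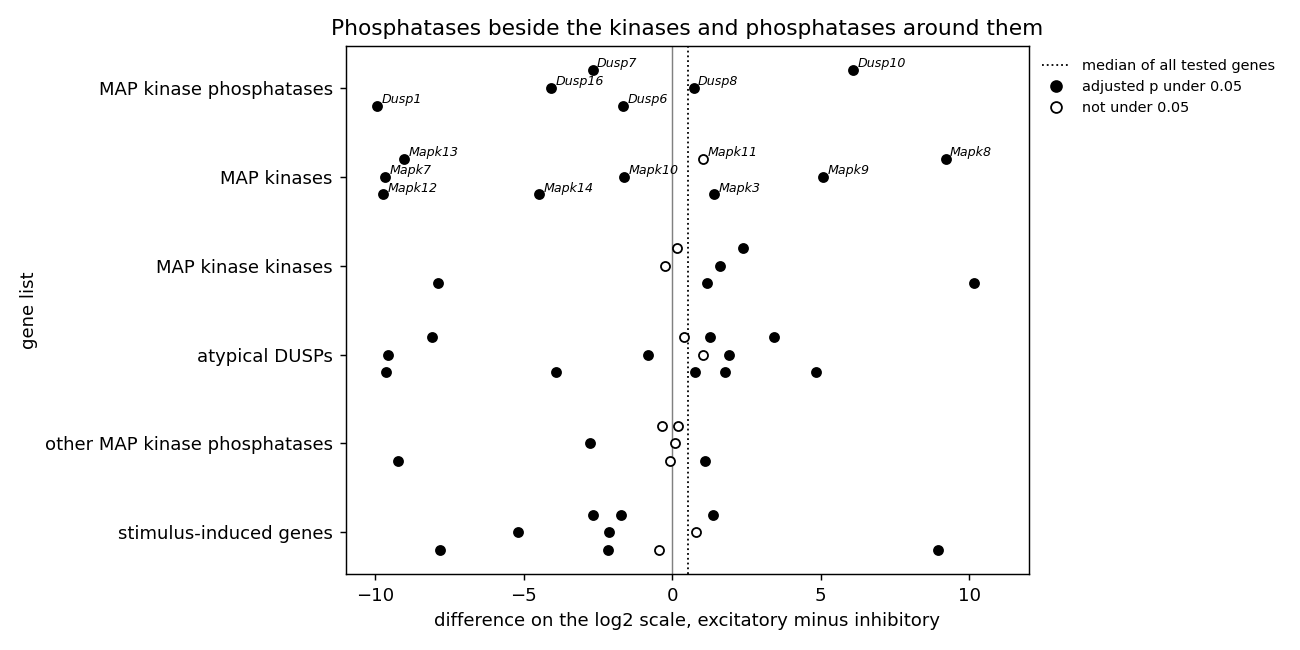
Difference between excitatory and inhibitory libraries on the log2 scale for each tested gene of the phosphatases and of 5 lists around them; filled points have a limma adjusted p under 0.05 and the dotted line is the median of all tested genes. Every list has points on both sides of 0, with Mapk8 and Mapk9 far to the right and Mapk7, Mapk12 and Mapk13 far to the left.

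Other phosphatases were compared in the same way, beside 71.8% of all tested genes past the threshold (65.8% after median-of-ratios scaling). Of 14 atypical dual-specificity phosphatases, mostly small proteins that lack the kinase-binding domain of the family described here, 13 were tested, of which 6 were higher and 5 lower in the excitatory libraries and 2 did not pass, with a median difference of 0.78. After median-of-ratios scaling 5 were higher and 5 lower. Dusp13, Dusp15 and Dusp27 each had a listed 0 in the excitatory libraries. Their inhibitory values were 9.76 and 9.54 for Dusp13, 8.43 and 7.73 for Dusp15, and 9.25 and 9.87 for Dusp27. Dusp14 had 5.07 and 4.94 in excitatory and 8.69 and 9.12 in inhibitory libraries. The number of atypical members past the threshold was 6 without excitatory replicate 1 and 6 without excitatory replicate 2.

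Among 8 phosphatases of other families that can act on MAP kinases, 7 were tested. Of these 1 was higher and 2 lower in excitatory libraries and 4 did not pass, with a median difference of -0.07. The share of all tested genes past the threshold was 71.8%. Ptpn5, the striatum-enriched tyrosine phosphatase STEP of ERK and p38, had 5.18 and 6.05 in excitatory and 8.29 and 8.50 in inhibitory libraries, and its call was lost when inhibitory replicate 1 or 2 was left out (limma adjusted p = 0.0857 and 0.0928). Ppm1d, a phosphatase of p38 in the response to DNA damage, had 0.43 and 0 in excitatory against 9.35 and 9.57 in inhibitory libraries. Ppp2cb, a catalytic subunit of protein phosphatase 2A, was higher in the excitatory libraries, with 12.99 and 12.64 there against 11.66 and 11.72 in inhibitory libraries, a call lost without inhibitory replicate 1 (0.088) or 2 (0.0813). After median-of-ratios scaling 1 of the 7 was higher and 5 were lower, and in the deposited values 1 passed without inhibitory replicate 1 or inhibitory replicate 2.

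The genes whose values were nearest to those of Dusp1 over the 4 libraries, by Euclidean distance among tested genes, were Cul2 (distance 0.34), Fgd3 (0.36) and Myo1f (0.37). Cul2 had 1.40 and 0.34 in excitatory and 11.20 and 10.87 in inhibitory libraries. Those nearest to Dusp10 were Rbm33 (distance 0.68), Smpdl3b (0.69) and Scn2b (0.71), and Scn2b had 9.47 and 9.87 in excitatory and 2.51 and 4.50 in inhibitory libraries.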

How the data were processed

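RNA of 4 libraries was measured; the labels name total RNA, the SMART-seq v4 kit for cDNA and the Nextera XT kit for libraries. Per the submitters' processing notes, TopHat, edgeR and the build mm10 were used; no version, counting tool or annotation is given in the sources used here. The authors' deposited tables hold 1 log2 value per gene and library. That no constant was added was settled from the values: after 2 to the power of the value, the lowest 12 bands lay within 3.17% to 7.59% of a spacing from whole multiples of the spacing, starting at 1 read for excitatory and 2 reads for inhibitory libraries. Reads printed as "about" are linear values divided by that spacing.

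limma 3.58.1 in R 4.3.3 fitted excitatory minus inhibitory, with a mean-variance trend (2.56 prior and 2 residual degrees of freedom), to the 13619 genes that had a value of 1 or more in 2 or more libraries. P-values were adjusted by Benjamini-Hochberg over these genes, and the threshold was 0.05. Since the values are log2, count models were not run. On simulated data for this comparison with 13619 genes, where the changed genes had a mean value above 8, the test recovered 10% of changes of 0.5 log2 units, 44% of 1, 96% of 2 and 100% of 4, and made 15 false calls. These 15 are a count and not a share of the calls made. Recovery with 71.8% of genes past the threshold, as in the deposited values, was not tested. Replicates were no copies: their median chi-square was 51.3 (excitatory) and 56.4 times (inhibitory) that of counting error, over genes with more than 100 estimated reads. Symbols matched GENCODE release M21 for 95.8% of genes. Named were all members, from each list up to 4 genes past the threshold by smallest adjusted p, the substrate kinases, label checks and the 3 nearest genes of the members with the largest difference each way; Egr2, Npas4, Mapk13, Ergic1, Lars, Mbp, Tmem119, P2ry12 and the other glial and vascular markers named were picked with their values in view. One gene of the MAP kinase list is not reported here and was left out of its counts. The members and lists were chosen with earlier results of these data known. Exact permutation of 2 against 2 libraries cannot go below p = 0.333 and was not used. Alternatives (scaling, filters, pseudocount, trend, replicate block, each library left out) are reported in the closing section.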

Additional observations from a re-analysis of the deposited data

How the results depend on the processing

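Dusp1, Dusp6, Dusp7, Dusp10 and Dusp16 kept their direction and their call under median-of-ratios and upper-quartile scaling, another filter on low values, a pseudocount of 8, limma without a trend and a replicate block, except that Dusp16 was not tested under the filter of at least 5 in 2 libraries. The pseudocount of 8 brought the difference to -7.50 for Dusp1, -1.75 for Dusp16 and 5.16 for Dusp10, against -9.94, -4.07 and 6.09 without it, since these genes have values near 0 under 1 label. Dusp8 kept its direction and lost its call under median-of-ratios (0.18) and upper-quartile scaling (0.20). The other phosphatases that can act on MAP kinases had 6 genes past the threshold under either scaling, against 3 in the deposited values. The added genes were Ppm1a, Ppm1b and Ppp2ca. Median-of-ratios scaling moved their differences from -0.07 to -0.61, from -0.33 to -0.87 and from 0.10 to -0.44. It moved the median of all tested genes from 0.52 to -0.01. Without 1 library, the difference ranged from -10.46 to -9.41 for Dusp1, -1.98 to -1.35 for Dusp6, -2.94 to -2.43 for Dusp7, 0.58 to 0.86 for Dusp8, 5.12 to 7.06 for Dusp10 and -5.34 to -2.80 for Dusp16. The genes past the threshold then numbered 6103 to 6551 of all genes (9777 with all 4 libraries), 3 to 4 of the 6 tested members, 7 to 8 MAP kinases, 2 to 3 MAP kinase kinases, 6 to 10 atypical phosphatases, 1 to 3 other phosphatases and 4 to 6 stimulus-induced genes, with 24 to 26 over the 5 lists together; such a fit takes its spread for the lone library from the other label. The deviations of same-numbered libraries had a correlation of -0.002 across genes, so gene by gene they did not deviate together. A shift equal for all genes does not enter this correlation and was not tested. That does not show whether same-numbered libraries were prepared together. With the replicate block 9782 genes and 6 members passed, and the block ended no member's call. Few reads underlie the low values of Dusp1 in the excitatory libraries, of Dusp10 in the inhibitory libraries, and of Dusp9 and Dusp16. Why these values were low was not tested.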
